A study of Mus musculus with 2 samples.

Results

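The extracellular matrix genes described here are 46 collagens, proteoglycans, elastic fibre proteins, lysyl oxidases and matrix glycoproteins, chosen by name as one module. They were measured by single-cell RNA-seq in the colon of mice with dextran sulfate sodium (DSS) colitis, a chemical injury of the colon lining. The list holds 6 fibril-forming collagens (Col1a1, Col1a2, Col3a1, Col5a1, Col5a2, Col5a3), 4 basement membrane collagens (Col4a1, Col4a2, Col15a1, Col18a1), 3 beaded filament collagens (Col6a1, Col6a2, Col6a3), 2 fibril-associated collagens (Col12a1, Col14a1) and the short-chain collagen Col8a1. It also holds 8 elastic fibre and microfibril genes, 6 small leucine-rich proteoglycans, 3 lysyl oxidases, 6 genes of laminins, nidogens and perlecan, 6 cell-binding and matricellular glycoproteins, and the large proteoglycan Vcan. All 46 were listed in both libraries, among 25467 genes listed in the library labelled Elf1 KO and 26425 in the WT library. One library carried the label Elf1 KO with DSS and the other the label WT with DSS. Each pooled cells of the proximal colon, distal colon and rectum from 3 C57BL/6 mice aged 8 to 10 weeks. Both groups had received DSS. The sources used here give neither its dose and duration nor the deleted part of Elf1. Elf1 encodes an ETS-family transcription factor.

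Collagens are secreted as procollagen chains, trimmed outside the cell, assembled into fibrils or networks and cross-linked by lysyl oxidases. Small leucine-rich proteoglycans such as decorin bind along collagen fibrils and regulate their thickness, while elastin is laid onto a scaffold of fibrillins, fibulins and microfibril-associated proteins. Laminins, nidogens, perlecan and the type IV collagens form basement membranes under epithelium, around vessels and around muscle cells. In the gut wall most interstitial matrix is made by fibroblasts and smooth muscle cells, and colitis remodels it.

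With 1 library in each group there is no replicate and no test. Levels are given as CPM, the UMIs of a gene scaled to the total UMIs of a cell class, with exact Poisson intervals where printed, and differences as the log2 ratio of the library labelled KO over the WT library with an exact binomial 95% interval. Both kinds of interval cover counting error only. After filtering, 9474 cells with 37261926 UMIs remained in the library labelled KO and 7718 cells with 29823446 UMIs in the WT library, with median depths of 2636 UMIs per cell under the KO label and 2022.5 in WT. Elf1 itself had 180.96 CPM (6743 UMIs) in the library labelled KO and 191.56 CPM (5713 UMIs) in the WT library, a log2 ratio of -0.08 (95% interval -0.13 to -0.03). In fibroblasts Elf1 had 153 CPM under the KO label and 133 CPM in WT. A 3′ read outside a deleted part would not report the deletion, so this level does not check the label, and the libraries are called by their labels. Of the cell barcodes, 57 occurred in both libraries and 44 remained in both after filtering. Haemoglobin and other red cell transcripts, a 7-gene list, summed to 5920 CPM in fibroblasts of the library labelled KO and 281 CPM in WT fibroblasts, to 17208 CPM under the KO label and 394 CPM in WT in the joint smooth muscle and pericyte class, and to 13425 CPM under the KO label and 310 CPM in WT in endothelial cells. A list of 11 macrophage genes summed to 626 CPM in the same fibroblasts of the library labelled KO and 2256 CPM in WT. In fibroblast cluster 25, described below, it summed to 2717 CPM under the KO label and 3040 CPM in WT. In the other fibroblast clusters it summed to 216 to 788 CPM under the KO label and 344 to 1325 CPM in WT. Which cells the RNA of these lists came from, and its part in the ratios, was not tested.

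Fibroblasts were the main site of matrix RNA in both libraries. Among 11 cell classes, fibroblasts had the highest CPM for 34 of the 46 genes in the library labelled KO, where 6.24% of all genes peaked in fibroblasts. They had the highest CPM for 35 of the 46 in the WT library, where 9.05% of all genes did, and for 30 genes this held in both. Endothelial cells, which line blood and lymphatic vessels, had the highest Col15a1 level in both libraries, at 387 CPM under the KO label and 929 CPM in WT. Enteric glia, the support cells of the gut nervous system, had the highest Fbln5 level in both. That was 747 CPM under the KO label and 900 CPM in WT, with endothelial cells next at 133 CPM and 213 CPM. Glia also led for Col5a3 and Fbln2 in both, by smaller margins over fibroblasts. They were few, 42 cells under the KO label and 24 in WT. In WT, Col5a3 had 162 CPM in glia and 123 CPM in fibroblasts, and Fbln2 475 CPM and 471 CPM. The joint smooth muscle and pericyte class had the highest WT levels of Aspn, Ogn, Mfap5, Col6a3, Postn and Sparcl1. In the library labelled KO that class led for Dcn alone, at 23739 CPM against 23738 CPM in its fibroblasts. Under the KO label 82.8% of the class was cluster 2, described below, which carried few contractile markers and had 26997 CPM of Dcn. Without cluster 2 the class had 9524 CPM of Dcn under the KO label, below its fibroblasts.

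**Figure D1:**
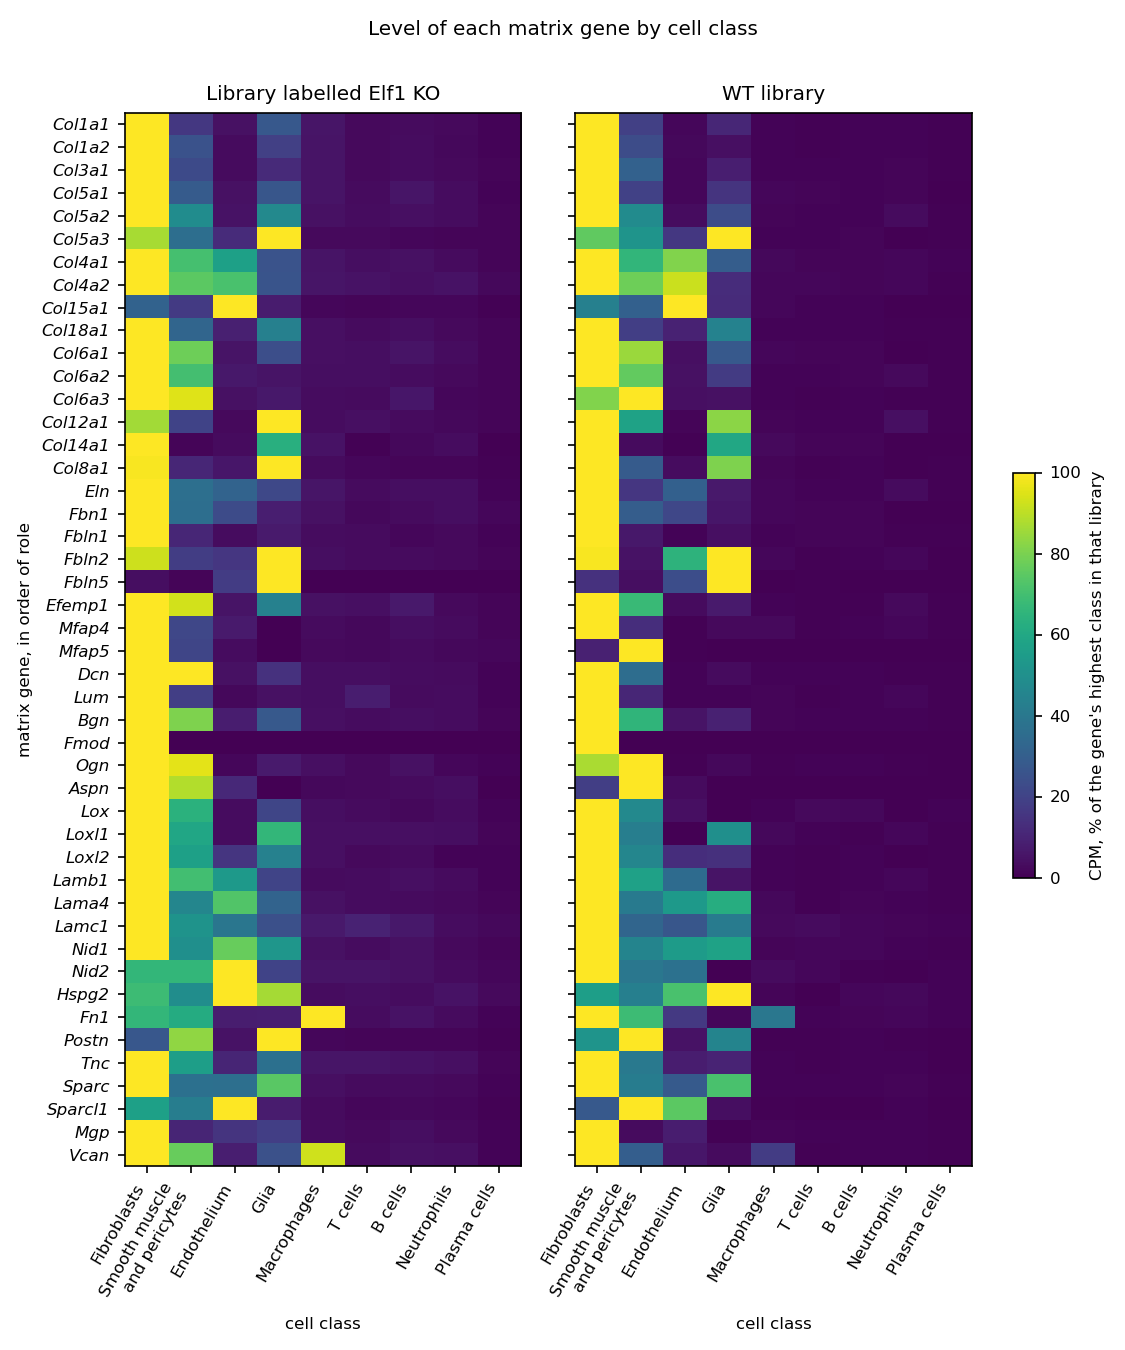
Level of each of the 46 matrix genes in stromal and immune cell classes, with the library labelled Elf1 KO beside WT. Colour gives CPM as a percent of the gene's highest class shown in that library. Levels therefore cannot be compared between the libraries in this figure. Most genes are highest in fibroblasts, while Col15a1 is highest in endothelial cells and Fbln5 in glia in both libraries.

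The fibroblasts of the libraries were spread unequally over their clusters, which were made without the 46 genes. Cluster 3, led by Ccl11, Ccl2 and Cxcl5, and cluster 5, led by Mmp10 and Mmp13, were both named inflamed-like from a marker list. Cluster 3 held 1114 cells of the library labelled KO and 68 WT cells, and cluster 5 held 1019 of the library labelled KO and 87 WT cells. Cluster 11, adventitial-like and led by Il33 and Ptx3, held 449 cells of the library labelled KO and 123 WT cells. Cluster 12, led by Ptn and Thbs2 and left unnamed, held 87 cells under the KO label and 63 WT cells. Cluster 25, homeostatic-like and led by Sfrp2, Lpl and Wnt4, held 32 cells under the KO label and 875 WT cells. It made up 72.0% of WT fibroblasts and 1.18% of those of the library labelled KO. A cluster mostly of 1 library may be that library rather than a cell state. For many genes class values are therefore set beside values within clusters. For others, such as Bgn, Eln, Fn1 and Vcan, only the fibroblast class value is given. The part of the unequal spread over clusters in those values was not tested.

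Many matrix genes had their highest fibroblast level in the same cluster in both libraries. Of the 45 genes with at least 50 fibroblast UMIs over both libraries, 30 had their highest fibroblast level in the same cluster in both, against 36.1% of the 11376 genes tested. Adventitial-like cluster 11 was the highest in both libraries for 15 of the 45, against 8.63% of all genes. These included fibrillar Col1a1, Col1a2 and Col3a1, fibril-associated Col14a1, microfibril genes Fbn1 and Mfap5, and Lox. Col3a1 reached 17363 CPM in cluster 11 under the KO label and 24901 CPM in WT, while its level in the other fibroblast clusters was 3668 to 4458 CPM under the KO label and 4678 to 6446 CPM in WT. Cluster 12 was the highest in both for 7 of the 45, near the 14.5% of all genes. Among them were Lum, Fbln1, Mfap4, Aspn and Col6a3. Lum, the proteoglycan lumican, had 4309 CPM in cluster 12 under the KO label and 7353 CPM in WT. Mgp, an inhibitor of calcification, stood at 14275 CPM there under the KO label and 14372 CPM in WT. Homeostatic-like cluster 25 was the highest in both for 4 of the 45, Col15a1, Eln, Efemp1 and Nid2, near the 7.31% of all genes. The choice of these clusters as units was made after their composition was seen.

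Taken as a class, fibroblasts of the library labelled KO had lower levels of most matrix genes than WT fibroblasts. The median log2 ratio over the 45 genes was -0.75, beside -0.34 over all 11376 genes. At 2-fold or more, 18 of the 45 were lower, against 13.3% of all genes, and 1 was higher, against 3.37%. With every ratio set relative to the median of all genes, 9 were lower by 2-fold or more, against 6.92% of all genes, and 3 were higher, against 6.05%. TMM scaling moved the median of all genes to 0.04, and to 0.13 in both contractile and endothelial cells. Relative to the median of all genes, Col3a1, Col5a2, Col5a3, Col12a1, Col18a1, Tnc, Loxl2, Lamc1 and Nid1 stood above 0 in fibroblasts, where their ratios as given are below 0. The share of fibroblast UMIs taken by the 45 genes was 6.02% under the KO label and 6.72% in WT. Dcn alone gave 23738 CPM of that under the KO label and 12503 CPM in WT, so these shares do not describe the other genes. For Col1a1, the mean per fibroblast was 145 times the lowest mean of any named class under the KO label, and 323 times in WT. That lowest class mean is used here as a measure of RNA carried over between cells. It is not an upper bound for every class, as carry-over may differ between classes. Under the KO label the red cell list summed to 636 CPM in fibroblast cluster 12 and to 21100 CPM in contractile cluster 1, described below.

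**Figure D2:**
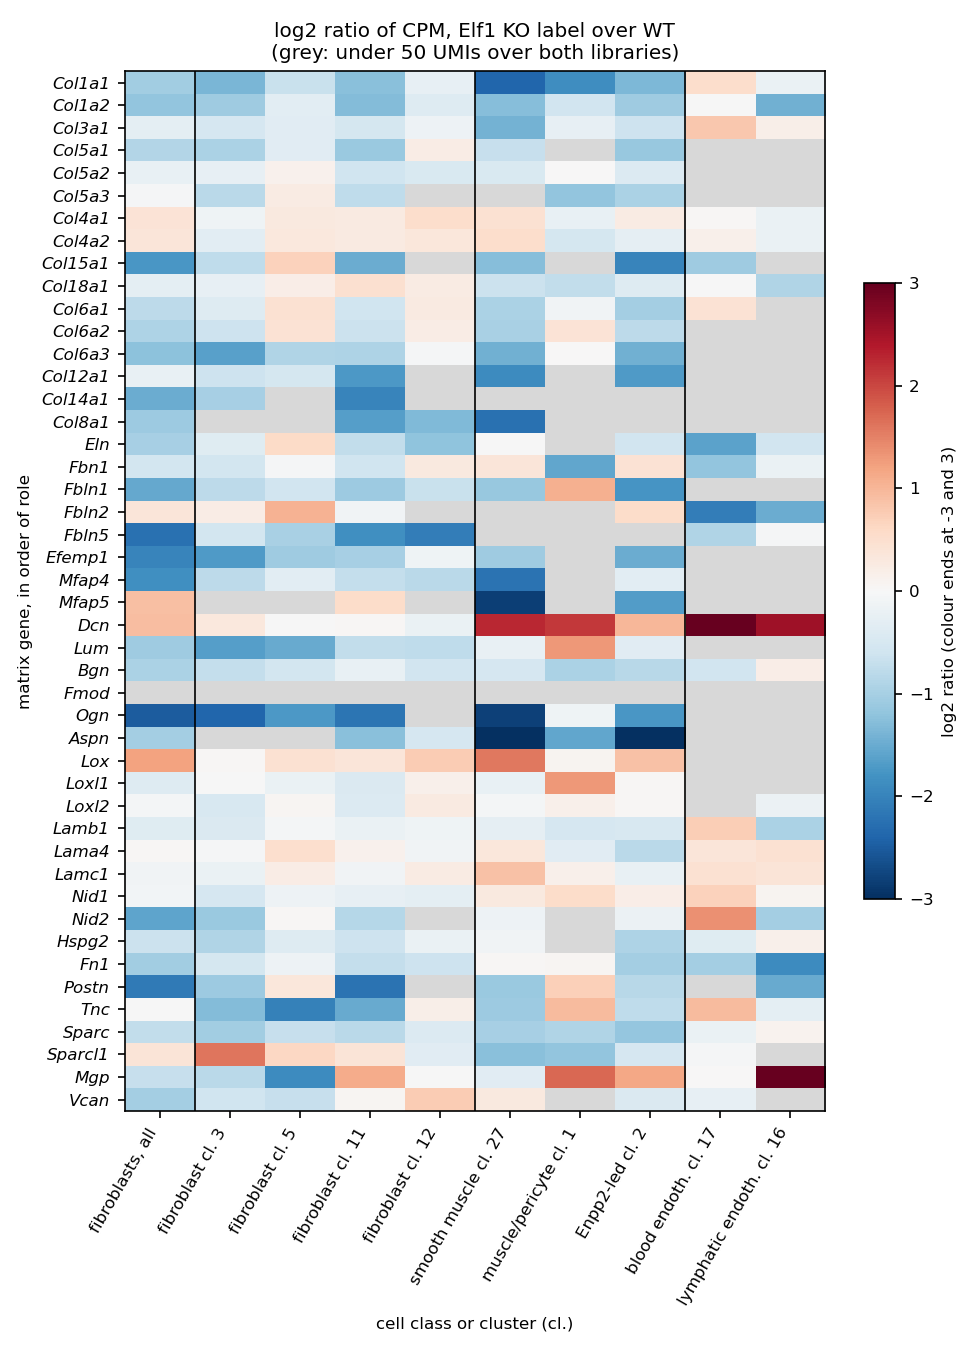
Log2 ratio of the library labelled KO over WT for each matrix gene in the stromal classes and clusters, with grey where a gene had under 50 UMIs over both libraries. Aspn in smooth muscle cluster 27 is at -5.21 and Dcn there at 2.25, while Dcn within fibroblast clusters lies between -0.20 and 0.32.

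The type I collagen chains, the main components of collagen fibrils, were lower in fibroblasts of the library labelled KO. Col1a1 had 1356 CPM (21923 UMIs) in its fibroblasts and 2781 CPM (15245 UMIs) in WT fibroblasts, a log2 ratio of -1.04 (95% interval -1.07 to -1.01). Within clusters 3, 5, 11, 12 and 25 the Col1a1 ratio was -1.36, -0.67, -1.25, -0.26 and -1.58. The cluster 25 value rests on 32 cells of the library labelled KO. Col1a2 had 1722 CPM under the KO label and 3906 CPM in WT, a ratio of -1.18 (-1.21 to -1.16), with -1.07, -0.31, -1.29, -0.38 and -1.55 in the same clusters. Over all kept cells, of which the library labelled KO had more fibroblasts, the levels were not lower: Col1a1 had 631 CPM under the KO label and 549 CPM in WT, and Col1a2 had 813 CPM under the KO label and 779 CPM in WT. Its annotated start region is shown because it is the fibril-forming gene with the lowest fibroblast ratio. RefSeq places it at chr6:4505368-4505667 (GRCm38.p6, plus strand), from 250 bases before to 50 after the start, with CCAAT and GGGCGG matches on either strand in capitals.
Col1a2: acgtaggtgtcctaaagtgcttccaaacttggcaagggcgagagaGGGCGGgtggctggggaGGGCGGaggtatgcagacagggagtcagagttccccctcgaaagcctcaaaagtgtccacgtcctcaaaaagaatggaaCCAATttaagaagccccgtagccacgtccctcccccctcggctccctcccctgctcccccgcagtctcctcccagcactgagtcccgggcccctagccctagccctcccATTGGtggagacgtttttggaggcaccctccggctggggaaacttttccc
Col3a1, the type III chain of loose tissue, differed less, at 7035 CPM under the KO label and 8640 CPM in WT, a ratio of -0.30 (-0.31 to -0.28) that turns to 0.04 relative to all genes. Col5a1, which nucleates fibrils, had 316 CPM under the KO label and 580 CPM in WT, a ratio of -0.87. Col5a2 was at -0.21, and Col5a3 at -0.03 with an interval that spans 0 (-0.16 to 0.10).

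The chains of type VI collagen, which form beaded filaments around cells, were lower in these fibroblasts as well. Col6a1 had 648 CPM under the KO label and 1122 CPM in WT, Col6a2 had 455 CPM under the KO label and 866 CPM in WT, and Col6a3 had 190 CPM under the KO label and 443 CPM in WT. Their ratios were -0.79, -0.93 and -1.22. Over all kept cells the ratios were 0.42 for Col6a1, 0.28 for Col6a2 and -0.06 for Col6a3, the last with an interval that spans 0. Within cluster 12, where Col6a3 was highest, its levels were 1286 CPM under the KO label and 1314 CPM in WT, and the ratio was -0.03 (-0.25 to 0.19). Col14a1, which decorates fibril surfaces, had 67.0 CPM under the KO label and 188 CPM in WT, a ratio of -1.48 (-1.61 to -1.36). Most of its RNA came from cluster 11, at 273 CPM under the KO label and 1074 CPM in WT there. Col12a1, the other fibril-associated chain, had 181 CPM under the KO label and 212 CPM in WT, a ratio of -0.22. Col8a1, a short-chain collagen, had 102 CPM under the KO label and 217 CPM in WT, a ratio of -1.09.

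Basement membrane collagens went both ways. Col4a1 and Col4a2 encode the chains of the ubiquitous type IV network and are transcribed away from each other on chromosome 8. Their starts lie 21 bases apart, their gene models overlap by 22 bases, and the start windows in RefSeq share 78 bases. Those windows are shown because the ratios of the pair lay close together in fibroblasts and endothelial cells, at chr8:11312777-11313076 (minus strand) for Col4a1 and chr8:11312555-11312854 (plus strand) for Col4a2, both GRCm38.p6. Capitals mark CCAAT and GGGCGG or their reverse complements.
Col4a1: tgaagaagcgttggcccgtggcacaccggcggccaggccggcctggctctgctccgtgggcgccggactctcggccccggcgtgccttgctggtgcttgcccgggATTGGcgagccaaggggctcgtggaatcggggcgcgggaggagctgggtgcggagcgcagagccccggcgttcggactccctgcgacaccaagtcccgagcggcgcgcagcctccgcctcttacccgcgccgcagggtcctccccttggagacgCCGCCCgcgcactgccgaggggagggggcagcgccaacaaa
Col4a2: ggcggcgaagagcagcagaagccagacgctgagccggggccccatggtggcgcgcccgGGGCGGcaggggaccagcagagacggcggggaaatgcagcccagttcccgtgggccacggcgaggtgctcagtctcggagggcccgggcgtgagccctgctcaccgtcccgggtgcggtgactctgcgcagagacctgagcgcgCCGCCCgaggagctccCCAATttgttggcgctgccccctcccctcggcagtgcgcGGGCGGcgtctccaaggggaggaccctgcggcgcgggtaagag
In fibroblasts, Col4a1 had 2700 CPM under the KO label and 2046 CPM in WT, a ratio of 0.40 (0.37 to 0.43). Col4a2 had 1276 CPM under the KO label and 997 CPM in WT, a ratio of 0.35 (0.31 to 0.40). The direction was not uniform within clusters, where Col4a1 gave -0.13, 0.28, 0.27, 0.54 and -0.29 in clusters 3, 5, 11, 12 and 25, and Col4a2 gave -0.31, 0.31, 0.27, 0.33 and -0.52. Col18a1, the source of endostatin, had 1952 CPM under the KO label and 2392 CPM in WT, a ratio of -0.29.

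Col15a1, a collagen of the zone between basement membrane and interstitium, was among the lowest. It had 121 CPM in fibroblasts under the KO label and 404 CPM in WT, a ratio of -1.73 (-1.82 to -1.65). Within clusters 3, 5, 11 and 25 the ratio was -0.75, 0.70, -1.49 and -1.12. Of 28 matrix genes with a RefSeq start window, its window was the only one with CGGAAG, the core of many ETS sites, on either strand, against 17.2% of 27025 genes. This window, chr4:47207762-47208061 (GRCm38.p6, plus strand), carries the match on the minus strand, so its reverse complement is in capitals.
Col15a1: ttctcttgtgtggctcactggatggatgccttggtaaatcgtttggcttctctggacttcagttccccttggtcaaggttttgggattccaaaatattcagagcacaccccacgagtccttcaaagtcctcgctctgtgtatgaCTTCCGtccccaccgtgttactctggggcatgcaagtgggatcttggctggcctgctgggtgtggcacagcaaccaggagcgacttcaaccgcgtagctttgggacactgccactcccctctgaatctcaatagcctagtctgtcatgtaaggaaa
A letter match is not a binding site. In the same 28 windows GGGCGG was present in 64.3%, against 35.9% of all genes, CCAAT in 42.9% against 37.9%, and TATAAA in 14.3% against 14.2%.

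Laminins and nidogen-1, which build the basement membrane sheet, differed little in fibroblasts. Lama4 had 452 CPM under the KO label and 441 CPM in WT, a ratio of 0.03 (-0.03 to 0.10). Lamc1 was at -0.10, Nid1 at -0.07 and Lamb1 at -0.36. Nid2, the second nidogen, had 59.3 CPM under the KO label and 177 CPM in WT, a ratio of -1.57 (-1.71 to -1.44). Within clusters its ratio was nearer 0, at -1.10, 0.05, -0.85 and -0.99 in clusters 3, 5, 11 and 25, and WT levels were highest in cluster 25. Hspg2, which encodes perlecan, had 153 CPM under the KO label and 237 CPM in WT, a ratio of -0.64.

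Elastic fibre genes had the lowest median of the role groups, at -1.27 over 8 genes. Of these, 5 were lower by 2-fold or more, against 13.3% of all genes. Fbln5, needed for elastic fibre assembly, had 27.2 CPM in fibroblasts under the KO label and 129 CPM in WT, a ratio of -2.24 (-2.42 to -2.07). Efemp1, fibulin-3, had 178 CPM under the KO label and 702 CPM in WT, a ratio of -1.98 (-2.05 to -1.91). With clusters weighted equally, an alternative described below, Efemp1 was within 2-fold. Mfap4, a microfibril-associated glycoprotein, had 141 CPM under the KO label and 509 CPM in WT, a ratio of -1.85 (-1.93 to -1.77). Within clusters the Mfap4 ratio was smaller, at -0.79, -0.32, -0.71, -0.80 and -0.39. Fbln1, a fibulin of elastic fibres and basement membranes, had 418 CPM under the KO label and 1201 CPM in WT, a ratio of -1.52 (-1.57 to -1.47), with -0.78, -0.57, -1.08, -0.67 and -1.07 within clusters. Eln, the elastin gene, had 276 CPM under the KO label and 555 CPM in WT, a ratio of -1.01, and Fbn1, fibrillin-1, was at -0.54. Mfap5 and Fbln2 were higher. Mfap5, which sits on fibrillin microfibrils, had 139 CPM under the KO label and 73.9 CPM in WT, a ratio of 0.91 (0.75 to 1.06), and most of it lay in cluster 11, at 606 CPM under the KO label and 412 CPM in WT. Fbln2, fibulin-2, had 607 CPM under the KO label and 471 CPM in WT, a ratio of 0.37 (0.30 to 0.43).

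The small leucine-rich proteoglycans held the lowest and nearly the highest ratio of the list. Ogn, osteoglycin, had 85.3 CPM in fibroblasts under the KO label and 480 CPM in WT, a ratio of -2.49 (-2.59 to -2.40). In cluster 11, where Ogn was highest, it had 290 CPM under the KO label and 1331 CPM in WT, a ratio of -2.20 (-2.32 to -2.07). Aspn, asporin, lies on the same strand of chromosome 13, with starts 63572 bases apart and Omd between them. It had 52.4 CPM under the KO label and 106 CPM in WT, a ratio of -1.01 (-1.17 to -0.86). The RefSeq start windows of both are shown because Ogn had the lowest fibroblast ratio and both were among the 3 lowest in smooth muscle cluster 27. They are chr13:49607765-49608064 for Ogn and chr13:49544193-49544492 for Aspn (GRCm38.p6, plus strand), with TATAAA and CCAAT matches on either strand in capitals. The capitals in Ogn are a match on each strand that overlap.
Ogn: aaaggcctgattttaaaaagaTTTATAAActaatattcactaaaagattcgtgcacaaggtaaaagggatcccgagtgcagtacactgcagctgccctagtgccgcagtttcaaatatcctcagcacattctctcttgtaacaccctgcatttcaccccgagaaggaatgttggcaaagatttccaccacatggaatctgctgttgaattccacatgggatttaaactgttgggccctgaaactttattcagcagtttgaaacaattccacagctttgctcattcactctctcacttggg
Aspn: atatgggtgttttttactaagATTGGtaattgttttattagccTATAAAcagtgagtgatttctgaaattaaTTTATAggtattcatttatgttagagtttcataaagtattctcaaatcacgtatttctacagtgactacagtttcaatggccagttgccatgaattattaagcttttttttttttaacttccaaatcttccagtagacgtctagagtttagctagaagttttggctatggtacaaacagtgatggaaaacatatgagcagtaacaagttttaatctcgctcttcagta
Lum had 549 CPM in fibroblasts under the KO label and 1158 CPM in WT, a ratio of -1.08 (-1.12 to -1.03). Bgn, biglycan, had 1574 CPM under the KO label and 3058 CPM in WT, a ratio of -0.96 (-0.99 to -0.93). Fmod, fibromodulin, had 6 UMIs under the KO label and 9 in WT and was not compared.

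Dcn, decorin, was higher in fibroblasts of the library labelled KO as a class. It had 23738 CPM under the KO label and 12503 CPM in WT, a ratio of 0.92 (0.91 to 0.94). Within clusters 3, 5, 11, 12 and 25 the ratio was 0.32, 0.00, 0.03, -0.20 and 0.14. Cluster 25, which held most WT fibroblasts, had the lowest Dcn level of the clusters in both libraries, at 9045 CPM under the KO label and 8217 CPM in WT. Every other fibroblast cluster lay between 19683 and 25916 CPM under the KO label, and between 20192 and 23894 CPM in WT.

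**Figure D3:**
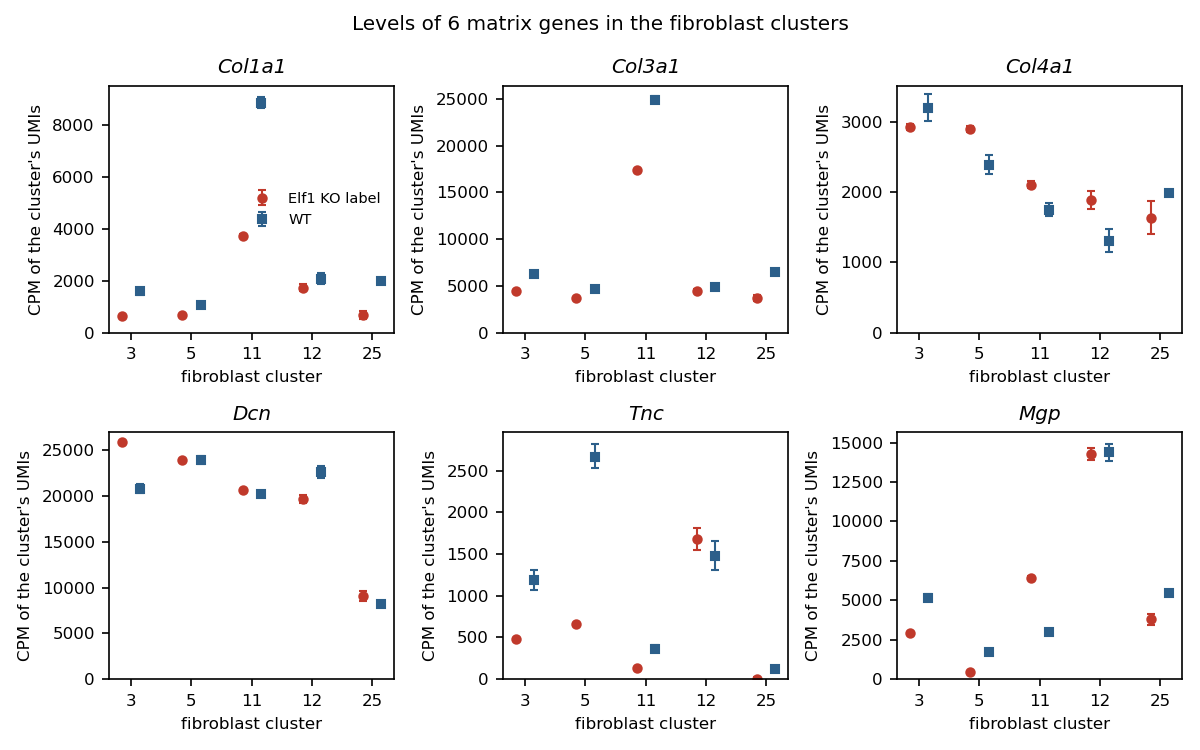
CPM of 6 matrix genes in the 5 fibroblast clusters, with the library labelled KO left of WT and bars for exact 95% Poisson intervals. Dcn is close between the libraries within each cluster, while Tnc in cluster 5 is at 657 CPM under the KO label and 2670 CPM in WT.

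Lox, the lysyl oxidase that cross-links collagen and elastin, was the gene with the highest fibroblast ratio and the one that was at least 2-fold higher. It had 523 CPM under the KO label and 225 CPM in WT, a ratio of 1.22 (1.13 to 1.30). In clusters 3, 5, 11, 12 and 25 the Lox ratio was 0.03, 0.47, 0.36, 0.76 and 1.55. The related enzymes Loxl1 and Loxl2 were at -0.39 and -0.05.

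Matricellular and cell-binding glycoproteins link cells to the matrix and change in repair. Postn, periostin, had 295 CPM in fibroblasts under the KO label and 1282 CPM in WT, a ratio of -2.12 (-2.17 to -2.07), and within clusters 3, 5, 11 and 25 the ratio was -1.09, 0.34, -2.21 and -1.55. Fn1, fibronectin, had 660 CPM under the KO label and 1352 CPM in WT, a ratio of -1.03 (-1.08 to -0.99). Sparc, a collagen-binding glycoprotein, had 3745 CPM under the KO label and 6286 CPM in WT, a ratio of -0.75, with -1.03, -0.69, -0.81, -0.42 and -1.16 within clusters. Tnc, tenascin-C, had near-equal class levels, at 491 CPM under the KO label and 499 CPM in WT, a ratio of -0.02 (-0.08 to 0.04). Within the inflamed-like clusters it was lower under the KO label. Tnc had 657 CPM in cluster 5 under the KO label and 2670 CPM in WT, a ratio of -2.02 (-2.11 to -1.93), and 479 CPM in cluster 3 under the KO label and 1185 CPM in WT, a ratio of -1.31. In cluster 25 it had 0 UMIs in the 32 cells under the KO label, which allows up to 3, and 122 CPM in WT. Mgp differed by cluster, at 6440 CPM in cluster 11 under the KO label and 2991 CPM in WT, against 466 CPM in cluster 5 under the KO label and 1736 CPM in WT. Its class ratio was -0.70. Sparcl1, a relative of Sparc, had 359 CPM under the KO label and 276 CPM in WT, a ratio of 0.38 (0.30 to 0.46), and Vcan, versican, had 438 CPM under the KO label and 889 CPM in WT, a ratio of -1.02.

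Counts by fibroblast cluster were smaller than for the class. Of the matrix genes with 50 UMIs in a cluster, 10 of 42 were lower by 2-fold or more in cluster 3 (8.87% of all genes), 5 of 41 in cluster 5 (5.42%), 13 of 45 in cluster 11 (8.79%) and 3 of 36 in cluster 12 (5.36%). Those higher by 2-fold or more numbered 1 in cluster 3 (8.86% of all genes), 1 in cluster 5 (9.84%), 1 in cluster 11 (4.24%) and 0 in cluster 12 (5.31%). Medians over those genes were -0.60, -0.15, -0.65 and -0.14, and are not set relative to all genes. In cluster 11 all genes lay lower as well. Relative to their median, 4.83% of all genes were lower there by 2-fold or more and 6.16% higher. With clusters weighted equally, an alternative added after the data were seen, 6 of 45 genes were lower by 2-fold or more (5.17% of all genes), 0 were higher (5.33%), and the median was -0.45 beside -0.07 over all genes. Of the 9 genes made up of Lox and the 8 lowest in the class, 2 remained 2-fold apart, Ogn at -2.10 and Fbln5 at -1.36, and Lox was at 0.40.

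Smooth muscle and pericytes could not be separated by their markers in every cluster and were summed as one contractile class. Cluster 27, smooth-muscle-like and led by Cnn1, Lmod1 and Tagln, held 81 cells of the library labelled KO and 281 WT cells. Its 12-gene smooth muscle list summed to 14265 CPM under the KO label and 24333 CPM in WT. Under a mitochondrial limit of 10%, the cluster with these leading genes held 15 cells of the library labelled KO and 259 WT cells. In cluster 27, 16 of 41 matrix genes were lower by 2-fold or more under the KO label, against 13.3% of all genes, and 2 were higher, against 6.43%. Aspn was the furthest apart, at 16.2 CPM (4 UMIs) under the KO label and 600 CPM (461 UMIs) in WT, a ratio of -5.21 (-7.09 to -3.84). Mfap5 had 166 CPM under the KO label and 1180 CPM in WT, a ratio of -2.83 (-3.32 to -2.38). Ogn had 97.3 CPM under the KO label and 678 CPM in WT, a ratio of -2.80 (-3.46 to -2.21). In WT these 3 genes were higher in the contractile class than in any other class.

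The main fibrillar collagens were lower in cluster 27 too. Col1a1 had 105 CPM under the KO label and 550 CPM in WT, a ratio of -2.38 (-3.02 to -1.81), and Col3a1 had 1159 CPM under the KO label and 3101 CPM in WT, a ratio of -1.42. Col8a1, Mfap4, Col12a1 and Col6a3 followed at -2.24, -2.22, -1.88 and -1.45. Postn had 1484 CPM under the KO label and 3201 CPM in WT, a ratio of -1.11. Some basement membrane genes were higher, with Lamc1 at 0.88 (0.48 to 1.27), Col4a2 at 0.53 (0.30 to 0.76) and Col4a1 at 0.47 (0.30 to 0.63), while Col15a1 was at -1.28 and Col18a1 at -0.64. Lox had 263 CPM under the KO label and 88.5 CPM in WT, a ratio of 1.57 (1.06 to 2.09). Dcn had 15343 CPM (3785 UMIs) under the KO label and 3223 CPM (2477 UMIs) in WT, a ratio of 2.25 (2.18 to 2.32). Dcn per cell was 45.2 times the lowest class mean under the KO label and 69.3 times in WT. The 12-gene inflamed fibroblast list summed to 4872 CPM in the same cells under the KO label and 847 CPM in WT, and a 13-gene fibroblast list to 2623 CPM under the KO label and 3454 CPM in WT. Their part in the Dcn level was not tested.

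Cluster 1, with Rgs5 and Des among its leading genes, had markers of smooth muscle and pericytes in equal number, 7 of each among its 50 leading genes, and held 139 cells of the library labelled KO and 63 WT cells. Of 31 matrix genes, 5 were higher by 2-fold or more (6.75% of all genes) and 5 were lower (8.25%). The smooth muscle list summed to 11044 CPM in these cells under the KO label and 19875 CPM in WT, the pericyte list to 5154 CPM under the KO label and 8984 CPM in WT, and the inflamed fibroblast list to 8057 CPM under the KO label and 2665 CPM in WT. Their part in the ratios was not tested. Dcn at 2.13, Mgp at 1.72, Loxl1 and Lum at 1.29 and Fbln1 at 1.08 were the higher ones. Mgp had 1632 CPM under the KO label and 495 CPM in WT. Col1a1 at -1.86, Fbn1 at -1.57, Aspn at -1.56 and the pair Sparcl1 and Col5a3 at -1.18 were lower. Sparcl1, highest in this cluster in both libraries, had 1761 CPM under the KO label and 3981 CPM in WT (interval of the ratio -1.33 to -1.03). Tnc had 1267 CPM under the KO label and 653 CPM in WT, a ratio of 0.96 (0.67 to 1.25).

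Cluster 2, led by Enpp2 and Serpina3c, held 1060 cells of the library labelled KO, 82.8% of its contractile class, and 60 WT cells. It carried few contractile markers, its smooth muscle list summing to 2782 CPM under the KO label and 3535 CPM in WT. Its inflamed fibroblast list summed to 40455 CPM under the KO label and 26340 CPM in WT. With the matrix genes among the variable genes, or with doublets kept, the cluster led by Enpp2 was left unnamed. Of 42 matrix genes, 14 were lower by 2-fold or more (9.16% of all genes) and 1 higher (10.1%), with Aspn at -3.12, Col1a1 at -1.34 and Dcn at 0.99. For the joint class of clusters 1, 2 and 27 the median over 44 genes was -0.63, beside -0.18 over all genes, with 15 lower (11.3%) and 4 higher (6.07%). Without cluster 2, a choice made after the data were seen, the median over 42 genes was -0.64, with 14 lower (10.3%) and 3 higher (5.61%).

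The genes furthest apart in the joint class included several that depend on which clusters it holds. The 4 higher ones were Dcn at 2.41, Fbln2 at 2.32, Lox at 1.66 and Mgp at 1.11. Fbln2 had 120 CPM under the KO label and 24.0 CPM in WT, and 401 of its 422 UMIs under the KO label came from cluster 2. Smaller positive ratios were those of Lamc1 at 0.55, Col18a1 at 0.52, Col4a1 at 0.50 and Tnc at 0.44. At the low end stood Mfap5 at -4.82, Aspn at -3.62, Ogn at -2.75, Col8a1 at -2.49, Col15a1 at -2.11, Sparcl1 at -1.87, Col6a3 at -1.59 and Fbln5 at -1.53. Without cluster 2, 7 of the 10 of these 2-fold differences that could be compared remained. Sparcl1 was then at 0.037, Lox at 0.84 and Col8a1 at -0.75, all within 2-fold, while Tnc was at 2.07, Mgp at 2.67, Aspn at -1.80 and Ogn at -1.21. Col18a1 changed sign, to -0.75. With clusters weighted equally 6 of 11 remained, and Tnc and Col18a1 changed sign. In the sum without cluster 2, cluster 1 gave 139 cells under the KO label and 63 in WT. Cluster 27 gave 81 cells under the KO label and 281 in WT. Within cluster 1 alone Tnc was at 0.96 and Mgp at 1.72. Sparcl1 was at -1.18 in cluster 1 and -1.25 in cluster 27. The part of this mix of clusters in the summed ratios was not tested.

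**Figure D4:**
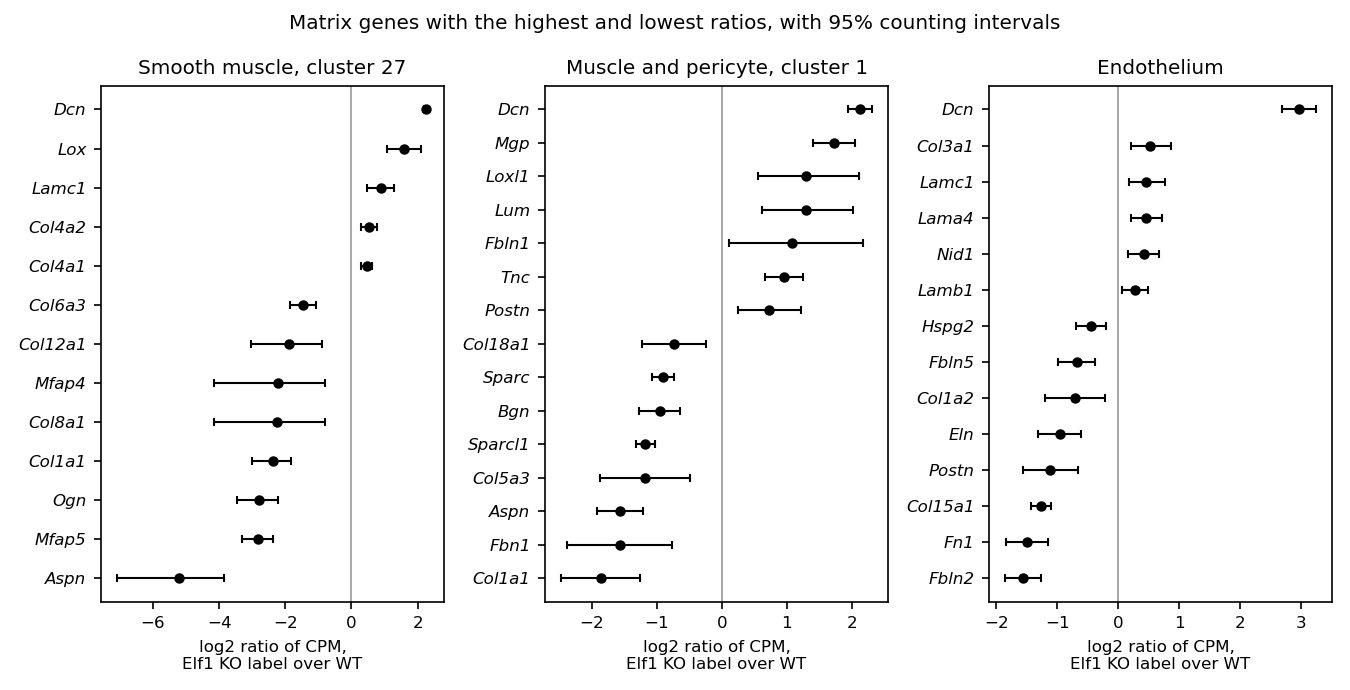
Log2 ratio of the library labelled KO over WT for the matrix genes in smooth muscle cluster 27 and in endothelial cells, with bars for exact 95% binomial intervals. In cluster 27 Aspn, Mfap5 and Ogn lie lowest and Dcn and Lox highest, and in endothelial cells Fbln2, Fn1 and Col15a1 are low while Lama4, Lamc1 and Nid1 are above 0.

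In endothelial cells, 375 under the KO label and 232 in WT, collagen XV and several glycoproteins were lower and laminin and nidogen genes higher. Of 30 matrix genes with 50 UMIs, 4 were lower by 2-fold or more (6.6% of all genes) and 1 higher (3.74%), and the median ratio was -0.27 beside -0.08 over all genes. Col15a1, highest in this class, had 387 CPM under the KO label and 929 CPM in WT, a ratio of -1.26 (-1.42 to -1.10). Fbln2 had 104 CPM under the KO label and 306 CPM in WT, a ratio of -1.56 (-1.86 to -1.26), and Fn1 had 80.2 CPM under the KO label and 226 CPM in WT, a ratio of -1.50 (-1.84 to -1.15). Postn was at -1.11, Eln at -0.96, Col1a2 at -0.71, Fbln5 at -0.68 and Hspg2 at -0.44. Subunits of vascular basement membrane were higher, with Lamc1 and Lama4 at 0.46, Nid1 at 0.42 and Lamb1 at 0.27 (0.06 to 0.49). Lamb1 changed sign with clusters weighted equally, and Col1a2 with the matrix genes among the variable genes or a mitochondrial limit of 10%. Lama4, a laminin chain typical of endothelium, had 329 CPM under the KO label and 239 CPM in WT. Col4a1 at -0.11 and Col4a2 at -0.02 were close between the libraries. Dcn was at 2.96 and Col3a1 at 0.53, both not far above the lowest class mean. Dcn per endothelial cell was 4.21 times the lowest class mean under the KO label and 3.83 times in WT, and Col3a1 2.56 times under the KO label and 3.22 times in WT.

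Blood and lymphatic endothelium were also taken apart. In blood-endothelial-like cluster 17 (185 cells under the KO label, 129 in WT), 5 of 26 genes were lower by 2-fold or more (7.36% of all genes) and 2 higher (5.37%). Col15a1 there had 712 CPM under the KO label and 1480 CPM in WT, a ratio of -1.06. Nid2 had 128 CPM under the KO label and 49.2 CPM in WT, a ratio of 1.38 (0.72 to 2.08), and Lamb1 was at 0.74 (0.50 to 0.99). Fbln2 was at -2.08 and Eln at -1.61. In lymphatic-like cluster 16 (190 cells under the KO label, 103 in WT), 5 of 24 genes were lower (6.2%) and 2 higher (4.66%). Fn1 there had 121 CPM under the KO label and 443 CPM in WT, a ratio of -1.88 (-2.29 to -1.47), Postn was at -1.52 and Fbln2 at -1.48. Lamb1 at -0.95 and Nid2 at -1.02 stood below 0 in these cells, while Lama4 was at 0.45 (0.11 to 0.81).

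Glia were few, 42 cells under the KO label and 24 in WT, and their intervals are wide. Fbln5 had 747 CPM in glia under the KO label and 900 CPM in WT, a ratio of -0.27 (-0.70 to 0.17). Postn had 1091 CPM under the KO label and 1112 CPM in WT, a ratio of -0.03 (-0.40 to 0.35). Sparc had 2784 CPM under the KO label and 4473 CPM in WT, a ratio of -0.68 (-0.89 to -0.48), and Hspg2 was at -1.14 (-1.88 to -0.40).

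Fn1 and Vcan were also present in the class of macrophages and monocytes, at higher class levels under the KO label. This class joined cluster 6, led by Chil3 and F13a1, and cluster 7, led by C1qc and C1qb. Cluster 6 held 542 cells under the KO label and 189 in WT, and cluster 7 held 434 and 367. The part of this mix in the class ratios was not tested. Fn1 had 998 CPM in macrophages and monocytes under the KO label and 536 CPM in WT, a ratio of 0.90 (0.80 to 1.00), and Vcan had 407 CPM under the KO label and 158 CPM in WT, a ratio of 1.37 (1.19 to 1.55). Per cell, Fn1 was 62.5 times the lowest class mean under the KO label and 83.4 times in WT, and Vcan 56.5 times under the KO label and 54.6 times in WT. Most other matrix genes in immune cells stayed near that lowest mean, which for most genes was itself that of an immune class. Dcn had 778 CPM in B cells under the KO label and 118 CPM in WT, and B cells gave the lowest class mean of the library labelled KO. At 2-fold or more, 13 of 21 matrix genes were higher under the KO label in B cells (4.76% of all genes), 13 of 20 in T and innate lymphoid cells (5.34%) and 19 of 32 in macrophages and monocytes (4.68%). The library labelled KO held more fibroblasts, 2701 against 1216 in WT, and the part of their free RNA in these counts was not tested.

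Genes that fold, trim and anchor collagen were counted from separate lists. In fibroblasts, 5 of 29 enzymes of collagen folding, processing and cross-linking were lower by 2-fold or more and 0 higher, near the 13.3% and 3.37% of all genes, with a median of -0.55 beside -0.34 over all genes. Serpinh1, the collagen chaperone Hsp47, had 668 CPM under the KO label and 2169 CPM in WT, a ratio of -1.70 (-1.74 to -1.66), and Pcolce, which enhances procollagen trimming and is also on the fibroblast marker list, had 270 CPM under the KO label and 788 CPM in WT, a ratio of -1.54. The prolyl isomerase gene Fkbp14 was at -1.39. Of 19 matrix receptors, 4 were lower and 2 higher, with a median of -0.42. Itga5, a fibronectin receptor chain, had 223 CPM under the KO label and 92.3 CPM in WT, a ratio of 1.27 (1.14 to 1.41), Itgb8 was at 1.11 and the collagen receptor chain Itga1 at 0.91. The collagen receptor chain Itga11 was at -2.33, Sdc3 at -1.74 and the collagen uptake receptor Mrc2 at -1.48. Of 49 other matrix genes, 18 were lower and 3 higher, with a median of -0.70. Spp1, osteopontin, was at 8.04 (6.18 to 11.08) on 2 UMIs in WT, Prg4 at 5.14 and Smoc2 at 1.03, while Col28a1 at -3.44, Fbln7 at -2.91 and Col6a5 at -2.75 were lowest.

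For the contractile class only joint values of these lists are given. Cluster 2, with few contractile markers, made up 82.8% of that class under the KO label and 14.9% in WT. The part of this mix of clusters in the ratios was not tested. In the contractile class Serpinh1 had 385 CPM under the KO label and 1504 CPM in WT, a ratio of -1.96. Pcolce was at -2.04 and Plod3 at -1.01, while Furin was at 1.01. Of 24 enzymes, 3 were lower and 1 higher, near the 11.3% and 6.07% of all genes in this class. Of 17 receptors, 5 were higher and 2 lower, with Sdc4 at 2.14, Itgb8 at 1.96, Itga5 at 1.90 and Itga8 at -2.08. Of 31 other matrix genes, 7 were lower and 5 higher, with Spon2 at -3.35, Tgfbi at -2.43 and Ecm2 at -1.84 low, and Smoc2 at 2.39, Srpx2 at 2.08 and Matn2 (256 CPM under the KO label, 90.6 CPM in WT) high. In endothelial cells, 0 of 14 enzymes were lower and 1 higher, and 1 of 13 receptors was lower (Itgb4 at -2.33) and 1 higher (Itgb3 at 1.20), beside 6.6% lower and 3.74% higher of all genes. Of 20 other matrix genes there, 5 were lower, led by Tgfbi at -1.82, Ecm2 at -1.79 and Tnxb at -1.25, and 3 were higher, Spon1 at 3.69, Spp1 at 1.64 and Thbs1 at 1.05.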

How the data were processed

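Single-cell RNA-seq counts (UMIs per gene and cell) were used as deposited. Per the submitters' processing notes, the reads went through cutadapt 1.17, STAR 2.6.1a and featureCounts 2.0.1 on GRCm38, and per the labels' protocols the libraries were made on the Singleron GEXSCOPE system. From these counts, cells with at least 500 UMIs, 200 genes and at most 25% mitochondrial UMIs were kept. Doublets were removed with Scrublet in scanpy 1.11.5 (260 cells under the KO label). In the WT library the caller marked 2 cells, so the 5% with the highest scores, 406 cells, were removed. Clustering used 2000 variable genes without the 46 matrix genes, 30 components, 15 neighbours and Leiden at resolution 1.0. Clusters were named from marker lists that hold none of the 46 genes, by counts of markers among 50 leading genes.

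UMIs were summed per class or cluster and library, and genes with at least 50 UMIs over both libraries that are listed in both were compared. A count of 0 was taken as 3. As the design holds 1 library per group, with 3 mice pooled in each, no test was run, and the intervals cover counting error only. Named genes were those with the 8 highest and 8 lowest ratios in a class whose interval excluded a ratio of 1 (3 and 3 in the other lists), the genes whose highest class was not fibroblasts, and the highest gene of each role group. The text gives the other matrix genes as well. The members and lists were chosen with earlier results of these data known. Joining smooth muscle cells and pericytes, and using main clusters as cell states, departs from the plan and was decided after the clusters were seen. Scaling factors for alternatives came from edgeR 4.0.16 (TMM) and DESeq2 1.42.0. The free RNA measure is the lowest mean count per cell among named classes with at least 40 cells. The script for ratios was tested on simulated data.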

Additional observations from a re-analysis of the deposited data

Results flagged for a closer look

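For 4 genes, a pair of cell classes or a pair of clusters of 1 class lay at least 2-fold apart from equality in opposite directions, with both intervals excluding a ratio of 1. None of these differences was tested. Fbln2 had a log2 ratio of 2.32 in the contractile class and -1.56 in endothelial cells, a difference of 3.881. Fbln1 stood at 1.08 in cluster 1 and -1.77 in cluster 2, a difference of 2.846, and at -1.14 in smooth-muscle-like cluster 27, a difference from cluster 1 of 2.22. Mgp stood at 1.11 in adventitial-like fibroblast cluster 11 and -1.90 in inflamed-like cluster 5, a difference of 3.003. Nid2 stood at 1.38 in blood-endothelial-like cluster 17 and -1.02 in lymphatic-like cluster 16, a difference of 2.398. Between clusters of different classes, Lum stood at 1.29 in cluster 1 and at -1.64 and -1.52 in fibroblast clusters 3 and 5, and Sparcl1 at 1.61 in fibroblast cluster 3 and at -1.18 and -1.25 in clusters 1 and 27.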

How the results depend on the processing

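In fibroblasts the median log2 ratio was -0.75 with 18 genes lower by 2-fold or more (13.3% of all genes). TMM scaling gave -0.37 and 9 genes (6.48%), and DESeq2 size factors -0.34 and 9 (6.06%). Doublets kept gave -0.66 and 11 (12.6%), and clusters weighted equally -0.45 and 6 (5.17%). The medians of all genes were -0.34, 0.04, 0.07, -0.29 and -0.07 in the same order. For the matrix genes the median was -0.77 with no low-count limit and -0.72 for the mean over cells. It was -0.79 at resolution 2.0 and -0.77 with the free RNA measure subtracted. In the joint contractile class (-0.63) it was -0.32 with TMM, -0.31 with DESeq2 factors, -0.29 with cells thinned to 1000 UMIs and -0.36 for the mean over cells. In endothelial cells 7 of 45 genes were lower by 2-fold or more with no low-count limit (23.7% of all genes), against 4 of 30 (6.6%), and the median (-0.27) was 0.07 both with the matrix genes among the variable genes and with a mitochondrial limit of 10%. Scaling alternatives shift all genes alike, and the cause of the other changes was not tested. Of the named genes, Sparcl1 in the joint contractile class turned to 0.037 without cluster 2, beside -1.18 in cluster 1 and -1.25 in cluster 27. Sign changes under other settings were limited to Sparcl1 in fibroblasts, Col18a1 and Tnc in the contractile class, and Col1a2 and Lamb1 in endothelial cells. Thinning left out 179 fibroblasts of the library labelled KO and 64 of WT. No paired analysis was possible because each group has 1 library. Without a second library, differences between mice or preparations cannot be told apart from the label.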
